A study of Drosophila montana and Drosophila virilis with 10 samples.

Results

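The identifiers that drew the most reads in both D. montana and D. virilis were followed through cold acclimation. An identifier belonged to this set where its mean level was at least 400 reads per 1000000 gene reads (CPM) in the control libraries of each species. Of 15342 identifiers in the count files, 225 met the rule. The rule used the control levels of both species, so those levels are given as a description, while the levels in acclimated flies were not used by it. Whole adult flies were pooled, and messenger RNA was sequenced on SOLiD instruments. Acclimated D. montana gave 3 libraries and control D. montana kept at ambient temperature gave 3, each from a pool of 10 flies of strain 175OJ8 (origin Oulanka, Finland). Acclimated D. virilis gave 2 libraries and control D. virilis, likewise at ambient temperature, gave 2, each from a pool of 20 flies of strain TOY3F9 (origin Toyama, Japan). The stated ages after eclosion were 24 to 26 days in acclimated and 21 to 23 days in control D. montana, and 29 to 30 days in acclimated and 27 to 28 days in control D. virilis, so acclimation and stated age cannot be told apart within a species. The 10 libraries, in their listed order across both species, have stated ages of 21, 22 and so on up to 30 days without a repeat, and whether these are the true ages was not tested. Each species was represented by 1 strain. The labels used here give neither the sex of the flies nor the temperature and length of acclimation, nor whether the pools of a group were reared apart. If they were not, the p-values below cover technical spread alone.

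Cold acclimation is a period at a low but harmless temperature, after which insects tolerate cold better, and changes in membranes, ion balance and metabolism are known to go with it. In whole adult flies a small part of the genes supplies much of the messenger RNA, and such lists usually hold ribosomal proteins, translation factors, enzymes of energy metabolism, contractile proteins of muscle, and products of single tissues such as the gut, fat body and ovary. Sequencing measures each transcript as a share of the reads, so a gain in share by some transcripts is by construction a loss for the rest. The name table used here covered a D. montana assembly and held 0 of the 15342 identifiers, and the files do not pair identifiers with names. The 225 are therefore given by identifier, their assignment to those gene classes was not analysed here, and no sequence is shown. Counts were not divided by transcript length, so every order of identifiers below is an order of reads and not of molecules.

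Between 1518027 and 2235850 reads fell on genes in each library of D. montana, and between 650517 and 1316804 in each of D. virilis. Every one of the 225 was well covered: the lowest had 305 reads or more in each D. montana library and 111 or more in each D. virilis library, and the median one had 744 to 2318 reads. Counting alone gives a median member a coefficient of variation of 2.08% to 3.67%. Reads that the counter listed as not uniquely aligned, which did not enter the gene counts, made up 18.4% to 23.8% of the reads in D. montana files and 75.6% to 83.4% in D. virilis files. Levels were not tested between the species, since species cannot be told apart from strain, pool size or match to the annotation, and the labels do not say which of the 2 SOLiD instruments read which library. Within D. montana, the library acclimated 1 held the highest value of all 6 libraries for 90 of the 225 (40.0%) and control 1 the lowest for 98 (43.6%). Among the 8005 identifiers with a D. montana control mean of at least 10 CPM the same libraries held the highest value for 1202 (15.02%) and the lowest for 16.2%. In D. virilis, control 2 held the lowest of 4 values for 111 of the 225 (49.3%), against 23.5% of the 7676 identifiers with a D. virilis control mean of at least 10 CPM. The median responses, the numbers of calls and the read shares are also given without single libraries, for some of these only as a range.

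The 225 were 66.6% of the 338 identifiers that reached the threshold in D. montana controls and 67.8% of the 332 that reached it in D. virilis controls. Their mean levels ran from 258 to 17451 CPM in acclimated D. montana (median 1082), from 401 to 15453 CPM in control D. montana (median 1015), from 133 to 13735 CPM in acclimated D. virilis (median 1312) and from 401 to 16720 CPM in control D. virilis (median 1155). In the acclimated flies, whose levels the rule did not use, 220 of the 225 still averaged 400 CPM or more in D. montana and 209 in D. virilis. Of the 100 identifiers with the most reads, the set held 95 in acclimated and 93 in control D. montana, and 93 in acclimated and 89 in control D. virilis. The 113 identifiers that reached the threshold only in D. montana controls were mostly not silent in the other species, with a median of 205 CPM in D. virilis controls and 0 of them under 10 CPM. The 107 that reached it only in D. virilis controls had a median of 259 CPM in D. montana controls, and 7 of them were under 10 CPM.

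FBgn0016474, FBgn0206566 and FBgn0205992 held the first 3 places in D. montana, in acclimated and control flies alike. FBgn0016474 had 21769, 17127 and 13457 CPM in acclimated D. montana, against 13530, 15147 and 17682 CPM in control D. montana. In D. virilis it had 8939 and 9169 CPM in acclimated flies, against 10375 and 13254 CPM in control flies. Its values overlapped between the D. montana groups, while both acclimated D. virilis libraries were below both controls. Neither difference passed the threshold: the log2 fold change, acclimated over control, was 0.21 ± 0.28 (SE) in D. montana, with an edgeR adjusted p of 0.79, and −0.27 ± 0.16 in D. virilis, with an edgeR adjusted p of 0.51. FBgn0206566 had 19621, 12621 and 10529 CPM in acclimated and 9666, 12102 and 13608 CPM in control D. montana, and 6327 and 6279 CPM in acclimated and 7154 and 11331 CPM in control D. virilis. FBgn0205992 had 16277, 14240 and 9447 CPM in acclimated and 10030, 10424 and 12404 CPM in control D. montana, and 5200 and 5861 CPM in acclimated and 4747 and 9928 CPM in control D. virilis. All 3 were highest in the D. montana library acclimated 1 and, among D. virilis libraries, in control 2. Neither FBgn0206566 nor FBgn0205992 passed the threshold in either species (edgeR adjusted p = 0.69 and 0.66 in D. montana, 0.45 and 0.72 in D. virilis). Without D. virilis control 2 the fitted D. virilis log2 fold changes of FBgn0016474, FBgn0206566 and FBgn0205992 were 0.02, 0.03 and 0.43. The CPM, which are not TMM-scaled, of FBgn0016474 and FBgn0206566 were below control 1 as well, while those of FBgn0205992 were above it. Without D. virilis control 1, FBgn0206566 was called as lower in acclimated D. virilis, with a log2 fold change of −0.79 and an edgeR adjusted p of 0.0405 that assumes the lone control varies like the acclimated pair. Without D. montana acclimated 1 the log2 fold changes of FBgn0016474 and FBgn0206566 in D. montana were −0.0021 and −0.01. The ratio of FBgn0016474 to FBgn0206566 lay between 1.11 and 1.40 in D. montana and between 1.17 and 1.46 in D. virilis. That of FBgn0016474 to FBgn0205992 lay between 1.203 and 1.453 in D. montana and between 1.335 and 2.186 in D. virilis.

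The other identifiers in the first 6 places by the geometric mean of both controls differed more between the species than between treatments. FBgn0207393 drew the most reads in D. virilis, with 12795 and 14675 CPM in acclimated and 16931 and 16510 CPM in control flies. It had 3639, 3016 and 1855 CPM in acclimated and 3805, 3557 and 4918 CPM in control D. montana. Its D. virilis control mean was 4.08 times its D. montana control mean, and the ratio was 4.84 in acclimated flies. Both acclimated D. virilis libraries were below both controls while the D. montana groups overlapped, and neither difference passed the threshold (edgeR adjusted p = 0.57 in D. virilis and 0.44 in D. montana). FBgn0201384 had 11435 and 12576 CPM in acclimated and 9869 and 8779 CPM in control D. virilis, against 5199, 6090 and 6090 CPM in acclimated and 5948, 5244 and 6460 CPM in control D. montana. Both acclimated D. virilis libraries were above both controls for this identifier, but the log2 fold change of 0.49 ± 0.11 (SE) missed the threshold, with an edgeR adjusted p of 0.12. It was called with no filter on low counts and without acclimated 1 (edgeR adjusted p of 0.00137 and 0.0425). The D. montana groups overlapped, at a log2 fold change of 0.0058 ± 0.22 (SE). FBgn0205055 was high in D. montana, with 9910, 10051 and 10463 CPM in acclimated and 9428, 10123 and 11647 CPM in control flies, against 3449 and 3909 CPM in acclimated and 3735 and 3245 CPM in control D. virilis. The groups overlapped in both species.

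Levels of the 225 lay close together in the 2 species. In control flies the ratio of D. montana to D. virilis was within 2-fold for 194 of the 225 (86.2%), at least 2-fold towards D. montana for 14 and at least 2-fold towards D. virilis for 17. When each control library in turn was left out, the number within 2-fold was 189 to 201, and 192 without D. virilis control 2. The median log2 ratio was −0.14, with quartiles of −0.55 and 0.22. In acclimated flies the ratio was within 2-fold for 175 (77.8%), towards D. montana for 17 and towards D. virilis for 33, with a median log2 ratio of −0.26. The choice of identifiers high in both control groups itself limits the control ratios, and the acclimated ratios only in part. The largest control ratios belonged to FBgn0211352, at 9.06 times the D. virilis control mean, and FBgn0013068, at 3.76 times. The ratio of FBgn0013068 was 7.52 without D. virilis control 2 and 2.504 without D. virilis control 1, when it held place 8, while FBgn0211352 kept the first place with ratios of 7.40 to 11.1 when any control library was left out. FBgn0211352 had 2444, 2744 and 2783 CPM in acclimated and 4110, 2078 and 5184 CPM in control D. montana, against 425 and 551 CPM in acclimated and 492 and 345 CPM in control D. virilis. At the other end, besides FBgn0207393, FBgn0210031 was 3.16 times higher in D. virilis controls than in D. montana controls. It had 531 and 290 CPM in acclimated and 1162 and 1470 CPM in control D. virilis, and 451, 186 and 136 CPM in acclimated and 417, 393 and 441 CPM in control D. montana.

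**Figure D1:**
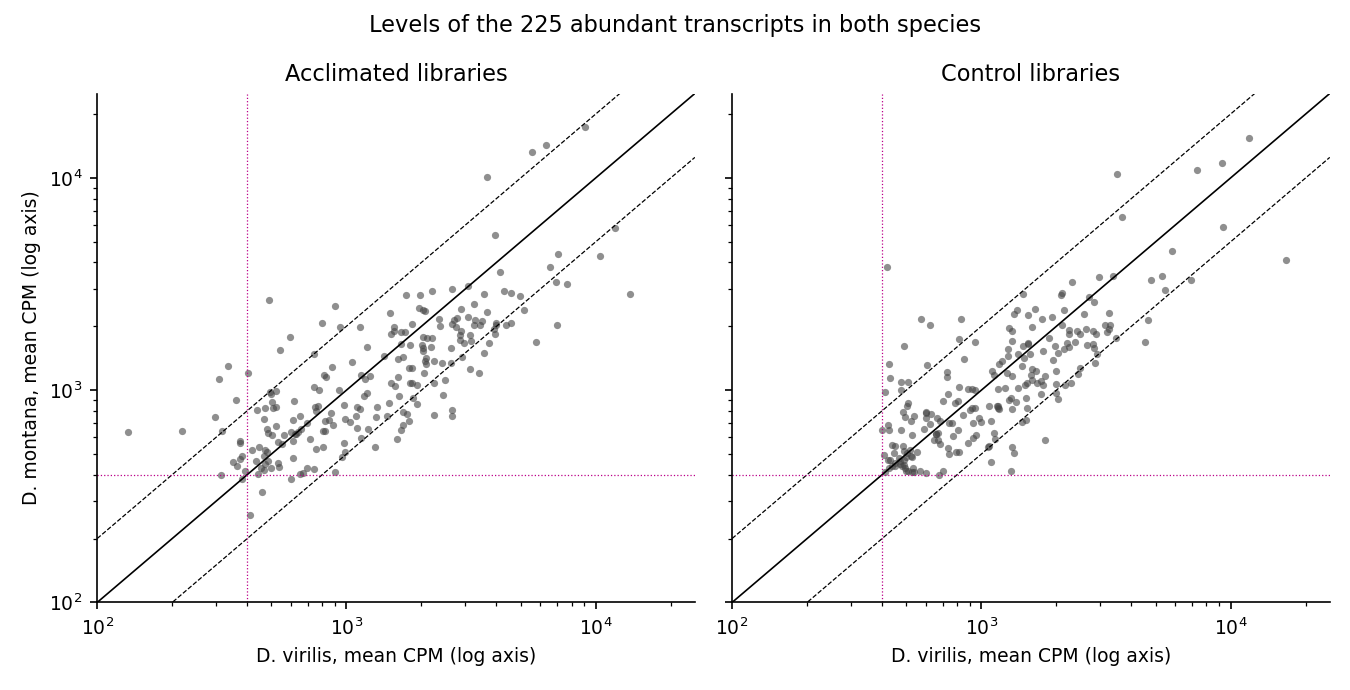
Each point is 1 of the 225 identifiers, with its mean CPM in D. virilis on the horizontal and in D. montana on the vertical axis (both log axes), in acclimated libraries on the left (n = 2 and 3) and control libraries on the right (n = 2 and 3). The solid line marks equal levels, the dashed lines 2-fold differences and the dotted lines the 400 CPM threshold that chose the set from control levels. In acclimated flies 175 points lie within the dashed lines, against 194 in control flies.

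The order of the 225 was similar in both species. Across the 225, the rank correlation between D. montana and D. virilis was 0.78 in acclimated and 0.75 in control flies (Spearman's rho on group means, n = 225 identifiers). Between single libraries of different species it ran from 0.69 to 0.81 over the 6 pairs of acclimated libraries and from 0.65 to 0.78 over the 6 pairs of control libraries. The species were further apart in order than the treatments: the correlation of acclimated with control means was 0.93 in D. montana and 0.95 in D. virilis. Libraries of the same group correlated with 0.88 to 0.95 in acclimated and 0.90 to 0.97 in control D. montana, and the single pairs in D. virilis with 0.97 in acclimated and 0.97 in control flies. Over all 15342 identifiers the correlation between the species was 0.88 in acclimated and 0.89 in control flies, over a much wider range of levels. Over the 445 identifiers that reached the threshold in controls of at least 1 species it was 0.56 and 0.41. Choosing identifiers that are high in at least 1 species by itself lowers this correlation. With the set taken instead from acclimated means of at least 400 CPM in both species, 231 identifiers met the rule, and 206 of these were among the 225 (89.2% of the 231 and 91.6% of the 225). Their correlation between the species was 0.75 in acclimated and 0.76 in control flies. The points share libraries and, for any identifier, transcript length and sequence, and identifiers are not independent replicates.

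The median coefficient of variation over the 225 was 11.5% in acclimated and 13.0% in control D. montana, and 7.81% in acclimated and 7.22% in control D. virilis, with only 2 libraries per D. virilis group. Among identifiers with a control mean of at least 10 CPM the medians were 14.1% and 15.6% in D. montana (n = 8005) and 19.4% and 15.6% in D. virilis (n = 7676). All these values include counting error, which is larger for identifiers with fewer reads. The coefficient of variation beyond counting error, as fitted by edgeR, had a median of 16.1% for the 225 in D. montana. Over all tested D. montana genes it was 14.5%. In D. virilis the medians were 22.8% for the 225 and 23.5% for all tested genes. Of the 225, 3 had a coefficient of variation above 50% in acclimated D. montana, which were FBgn0208675, FBgn0209509 and FBgn0210031. None was above 50% in control D. montana. In acclimated D. virilis 3 were (FBgn0016459, FBgn0205787 and FBgn0013072), and in control D. virilis 2 were (FBgn0013068 and FBgn0205787). These were named after their values had been seen. FBgn0016459 had 3507 and 7989 CPM in acclimated D. virilis, against 2845 and 2136 CPM in control D. virilis. FBgn0209509 had 1583, 504 and 775 CPM in acclimated D. montana, against 371, 740 and 634 CPM in control D. montana. The largest coefficient of variation in control D. montana was that of FBgn0211352, at 41.6%.

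For 63 of the 225 (28.0%) D. montana acclimated 1 was the highest and control 1 the lowest of the 6 libraries, against 5.75% of the 8005 identifiers with a D. montana control mean of at least 10 CPM. For 100 of the 225 neither library stood in that place. This split used D. montana libraries alone, so only the D. virilis values are given for it. The 63 took 16.6% and 16.8% of gene reads in acclimated D. virilis, against 13.1% and 12.5% in control D. virilis, and the 100 took 13.3% and 13.7% in acclimated and 13.3% and 12.4% in control D. virilis. Both acclimated D. virilis libraries were above both controls for 50 of the 63 (79.4%) and for 28 of the 100 (28.0%). The same held for 118 of the 225 (52.4%) and for 15.5% of the 7692 genes tested in D. virilis. By level, it held for 74.2% of the 128 of the set with a D. virilis mean of at least 1000 CPM. Of the other 97 it held for 23.7%. In D. virilis controls the 63 took about the same share of reads as the 100, so each held more on average. The part of level in this split and in the correlations below was not tested. The median D. virilis log2 fold change was 0.48 for the 63 and 0.09 for the 100. Across the 225, the log2 difference between D. montana controls 2 and 3 and control 1, which involves no acclimated fly, had a rank correlation of 0.51 with the D. virilis log2 fold change (n = 225 identifiers). Over the 7443 identifiers tested in both species the same correlation was 0.11. The difference between acclimated 1 and acclimated 2 and 3 had a weaker one, 0.26 across the 225 and 0.07 over the 7443. The identifiers share libraries on each axis, and what differed between the D. montana control pools was not tested.

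**Figure D2:**
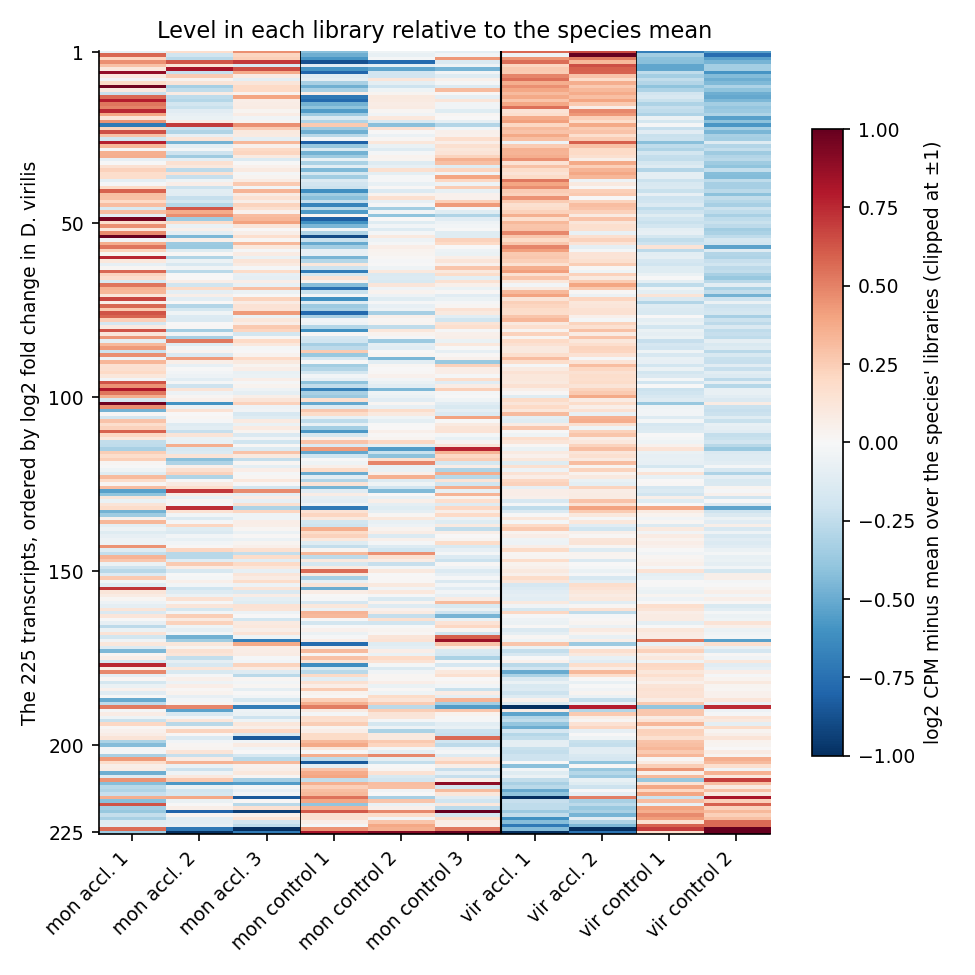
Each row is 1 of the 225 identifiers, ordered by log2 fold change in D. virilis (highest at the top), and each column 1 library, with acclimated libraries left of controls within each species. Colour gives log2 CPM minus the identifier's mean over the libraries of its species, clipped at ±1. In the upper rows D. montana acclimated 1 is often raised and control 1 often lowered. The order uses the D. virilis values, so raised acclimated D. virilis libraries in the upper rows follow from it.

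The set took a larger share of gene reads in both acclimated D. virilis libraries than in either control. The share was 42.7% and 43.0% in acclimated D. virilis, against 36.9% and 35.8% in control D. virilis, a difference of 6.47 percentage points between means of 42.9% ± 0.227 and 36.4% ± 0.785 (SD, n = 2 each). In D. montana it was 38.2%, 32.9% and 33.4% in acclimated flies, against 30.4%, 32.6% and 35.2% in control flies. The D. montana groups overlapped, and the difference of 2.10 points between 34.8% ± 2.92 and 32.7% ± 2.40 (SD, n = 3 each) was within the spread of the pools. It was 0.419 points without acclimated 1 0.938 without control 1 and 3.33 without control 3. No p is given for the summed share of a chosen set. Reads not uniquely aligned were also more frequent in acclimated D. virilis, at 82.7% and 83.4% of the reads, against 75.6% and 77.6% in control D. virilis. Their part in the difference was not tested. The number of identifiers with at least 1 read was 9949 and 11300 in acclimated D. virilis, against 11774 and 10593 in control D. virilis, although the acclimated libraries held more gene reads.

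**Figure D3:**
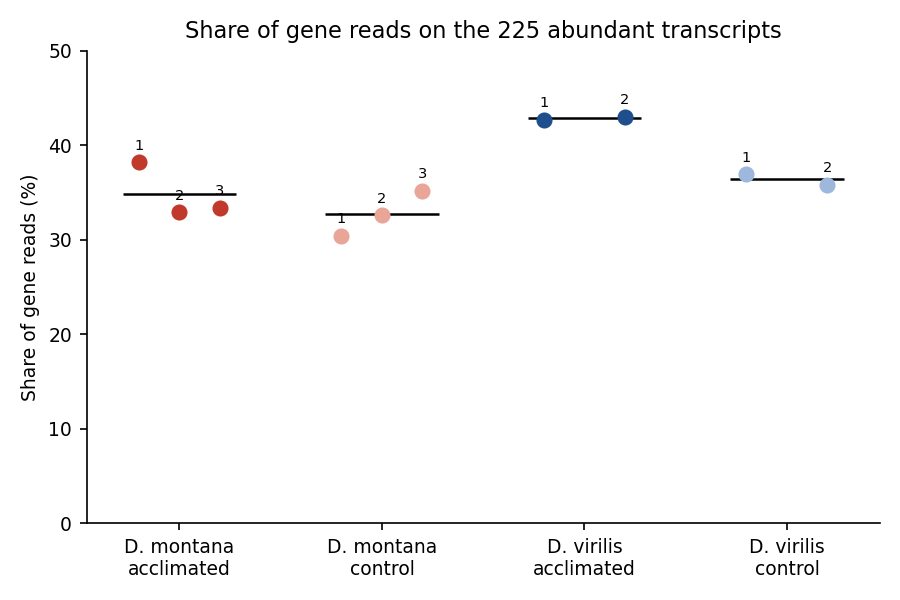
Each point is the percentage of a library's gene reads that fell on the 225 identifiers, by group, with the replicate number above it and the group mean as a line (n = 3 libraries per D. montana group, 2 per D. virilis group). Both acclimated D. virilis libraries (42.7% and 43.0%) lie above their controls (36.9% and 35.8%), whereas the D. montana groups overlap.

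In D. montana the share of the set called with acclimation lay near that of all genes tested. Identifiers that were not called were not shown to be unchanged. All 225 were tested with edgeR's quasi-likelihood test, and 5 had a Benjamini-Hochberg adjusted p under 0.05 over the 9315 genes tested, of which 2 rose and 3 fell. That is 2.22% of the set against 1.67% of all genes tested, of which 1.16% were upward and 0.515% downward. Unadjusted p-values were under 0.05 for 31 of the 225 (13.8%, against 13.4% of all). Acclimated libraries were all above the controls for 22 of the 225 (9.78%, against 8.7% of all) and all below for 23 (10.2%, against 9.75% of all). These shares were near the background. The median log2 fold change of the 225 was 0.11 with quartiles of −0.04 and 0.29, beside −0.01 over all tested genes, and 150 of the 225 were above 0. It was 0.05 without acclimated 1, 0.06 without control 1 and 0.20 without control 3. The 115 identifiers with a D. montana mean of at least 1000 CPM had a median of 0.19 and the other 110 a median of 0.05. The number of calls was 3 without control 2 (0.708% of all genes), when both upward calls were lost, and 8 without control 3 (2.99% of all genes).

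In D. virilis the values of most of the set were higher in acclimated flies, although 1 identifier alone passed the threshold. That is 0.444% of the 225, against 0.312% of 7692 tested genes, of which 0.182% were upward. Both acclimated libraries were above both controls for 118 of the 225 (52.4%), against 15.5% of all genes tested, and both below for 37 (16.4%), against 30.5% of all. Without control 2 they were above for 124 (55.1%), against 23.0% of all, and below for 57 (25.3%), against 49.3% of all. These overlap counts compare CPM, which are not TMM-scaled, unlike the fold changes in the fits. Unadjusted p-values were under 0.05 for 109 of the 225 (48.4%, against 12.8% of all), 101 of them with a positive log2 fold change (against 7.18% of all) and 8 with a negative one (against 5.64% of all). The median log2 fold change was 0.35 (quartiles 0.07 and 0.53), beside −0.01 over all tested genes, and 178 of the 225 were above 0. Without scaling beyond the sum of gene reads the median of all tested D. virilis genes was −0.12 and that of the 225 was 0.23. The set was chosen as high in controls, which by itself favours lower values in acclimated flies. With the set chosen on acclimated means, which favours the opposite, the median was 0.385.

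Within the set the median D. virilis difference was larger in the upper class of level, but not for the identifiers with the most reads. Of the first 6 by control geometric mean, FBgn0016474, FBgn0206566, FBgn0205992 and FBgn0207393 had negative D. virilis log2 fold changes (−0.27, −0.44, −0.31 and −0.17). Those of FBgn0201384 and FBgn0205055 were positive (0.49 and 0.20). Among the 128 identifiers of the set with a D. virilis mean of at least 1000 CPM, the log2 fold change had a median of 0.45, and both acclimated libraries were above both controls for 95 (74.2%). The other 97 had a median of 0.08, and 23 of them (23.7%) lay above. Of all tested genes 15.5% lay above. Without control 2 the numbers above were 100 of 128 (78.1%) and 24 of 97 (24.7%), against 23.0% of all tested. The mean over all 4 libraries includes the acclimated ones, so a higher value there helps to place an identifier in the upper class. With classes from the control mean alone, which favours the opposite, the median was 0.44 for 122 identifiers and 0.10 for the other 103. With all 7692 tested genes ordered by mean level and split into 10 equal classes, the median was −0.09 in the lowest class, 0.04 in class 9 and 0.18 in class 10, the highest, which holds all 225. By control mean alone they were 0.33, −0.01 and 0.11, so over all genes the order of the lowest classes depended on which libraries ranked them. Identifiers outside the set are given for comparison. The 109 identifiers outside the set with a D. virilis mean of at least 400 CPM over all 4 libraries had a median of 0.31, and 47 of them (43.1%) lay above. That mean includes the acclimated libraries and so favours higher values in them. The 107 identifiers at the threshold in D. virilis controls only had a median of 0.14. Both acclimated libraries were above both controls for 32 of the 107 (29.9%, against 15.5% of all tested) and below for 31 (29.0%, against 30.5%). Their choice on control levels favours lower values in acclimated flies. The 113 at the threshold in D. montana controls only had a median of −0.04.

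**Figure D4:**
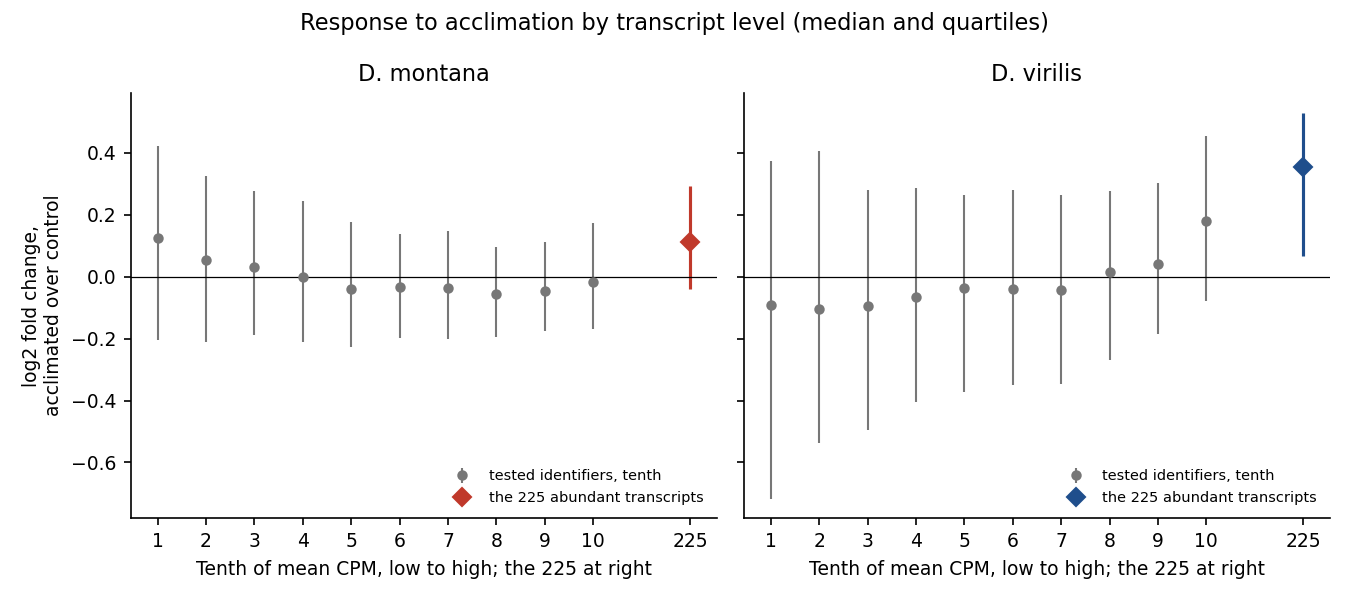
Log2 fold change, acclimated over control, of all tested genes in 10 equal classes of their mean CPM over the libraries of the species (circles, low to high) and of the 225 identifiers (diamonds), in D. montana on the left and D. virilis on the right. Markers are medians and bars run from the lower to the upper quartile. The classes use the mean over acclimated and control libraries. In D. virilis the 225 have a median of 0.35, above the 0.18 of the highest class, and in D. montana 0.11 beside −0.02.

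How many of the 225 were called in D. virilis depended on the tool, the filter and single libraries. The count was 60 (57 upward) with no filter on low counts, where 3.05% of all genes were called, and 22 (20 upward) with DESeq2's Wald test, where 3.76% of the genes given an adjusted p were called. With all 10 libraries fitted together it was 12 (10 upward), against 2.44% of all genes. Without acclimated 2 it was 32 (30 upward), against 2.63% of all, and without acclimated 1 it was 12 (11 upward), against 1.17% of all. Without control 1 it was 3, against 0.36% of all, and without control 2 it was 0, against 0.0613% of all. Leaving out a D. virilis library leaves 1 library in its group. The median of 0.35 stayed between 0.29 and 0.39 when single libraries were left out. In whole flies, fewer cells of a type and less RNA per cell cannot be told apart.

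The identifiers called in D. montana included FBgn0210325 and FBgn0197655, which rose. FBgn0210325 had 1275, 1442 and 1516 CPM in acclimated D. montana, against 509, 541 and 841 CPM in control D. montana. In D. virilis it had 2252 and 1911 CPM in acclimated flies, against 1144 and 1109 CPM in control flies. Acclimated libraries were above controls without overlap in both species. Its level in D. montana rose 2.27-fold, a log2 fold change of 1.18 ± 0.22 (SE) with an edgeR adjusted p of 0.0105. In D. virilis the log2 fold change of 1.01 ± 0.17 (SE) missed the threshold, with an edgeR adjusted p of 0.0595. FBgn0197655 had 844, 1391 and 1230 CPM in acclimated and 521, 547 and 570 CPM in control D. montana, and 731 and 920 CPM in acclimated and 424 and 480 CPM in control D. virilis. Again the groups did not overlap in either species. It rose 2.15-fold in D. montana, a log2 fold change of 1.11 ± 0.19 (SE) with an edgeR adjusted p of 0.00691, and had 0.98 ± 0.20 (SE) in D. virilis, with an edgeR adjusted p of 0.0835. Without D. montana control 2 neither D. montana call was kept (edgeR adjusted p = 0.0934 and 0.0595), with log2 fold changes of 1.06 and 1.09. DESeq2, edgeR's fit of all libraries together and edgeR with no filter called both in D. virilis. With library sizes taken outside the set FBgn0210325 alone was called there. Neither was called there with DESeq2 size factors in edgeR, upper quartile scaling, no scaling or the replicate number as a block.

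FBgn0013068, FBgn0210268 and FBgn0208855 fell in D. montana, the last of these named because the count was small. FBgn0013068 had 878, 337 and 692 CPM in acclimated D. montana, against 1990, 2128 and 2364 CPM in control D. montana, a 3.31-fold decrease with a log2 fold change of −1.73 ± 0.28 (SE) and an edgeR adjusted p of 0.00551. In D. virilis it had 112 and 153 CPM in acclimated flies, against 287 and 863 CPM in control flies. The acclimated libraries lay below the controls in both species, but the D. virilis controls were far apart (coefficient of variation 70.7%), and the log2 fold change of −2.03 ± 0.46 (SE) missed the threshold, with an edgeR adjusted p of 0.11. It was called in 4 of 12 alternatives, among them edgeR's fit of all libraries together (adjusted p = 0.0312) and the fit without control 1 (log2 fold change −2.64, edgeR adjusted p = 0.0017), while without control 2 the log2 fold change was −0.90 (edgeR adjusted p = 0.545). Among all identifiers it held place 202 in acclimated and place 33 in control D. montana, and place 1252 in acclimated and place 218 in control D. virilis. FBgn0210268 had 793, 592 and 542 CPM in acclimated and 1584, 1441 and 2086 CPM in control D. montana, a 2.60-fold decrease with a log2 fold change of −1.38 ± 0.22 (SE) and an edgeR adjusted p of 0.00534. In D. virilis it had 814 and 833 CPM in acclimated and 1342 and 1309 CPM in control flies, with a log2 fold change of −0.57 ± 0.16 (SE) and an edgeR adjusted p of 0.19. FBgn0208855 had 751, 679 and 687 CPM in acclimated and 1294, 1253 and 1879 CPM in control D. montana, a 2.05-fold decrease (edgeR adjusted p = 0.0163). In D. virilis it had 956 and 1103 CPM in acclimated and 1327 and 1477 CPM in control flies (edgeR adjusted p = 0.47). For all 3 the acclimated libraries lay below the controls in both species. FBgn0013068 and FBgn0210268 were called in each of 14 alternatives in D. montana, with adjusted p of at most 0.0292. FBgn0208855 was not called without acclimated 2 or without acclimated 3 (edgeR adjusted p = 0.0702 and 0.0794), with log2 fold changes of −1.004 and −0.992.

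FBgn0013133 was the identifier called in D. virilis. It had 2588 and 2720 CPM in acclimated D. virilis, against 1082 and 1189 CPM in control D. virilis, a 2.53-fold increase with a log2 fold change of 1.34 ± 0.17 (SE) and an edgeR adjusted p of 0.0226. In D. montana it had 627, 744 and 908 CPM in acclimated flies, against 497, 644 and 623 CPM in control flies, and the groups overlapped, at a log2 fold change of 0.40 ± 0.18 (SE) with an edgeR adjusted p of 0.36. The D. virilis call was lost without control 1 or control 2, when 1 control library was left and assumed to vary like the others, with an edgeR adjusted p of at most 0.0536 and log2 fold changes of 1.21 and 1.51.

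**Figure D5:**
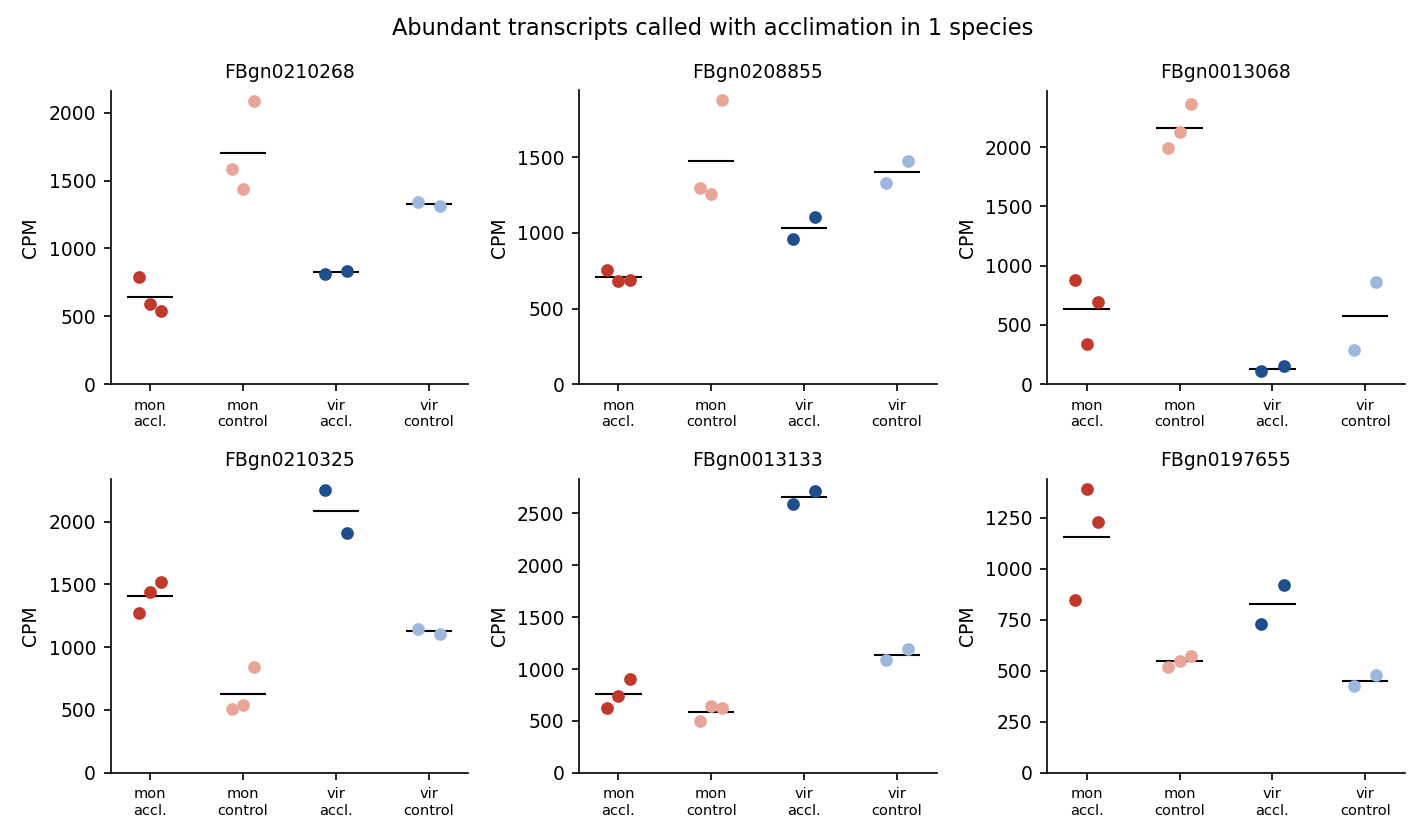
CPM in every library for the 6 of the 225 identifiers called with acclimation in 1 of the species, by group, with the group mean as a line (n = 3 libraries per D. montana group, 2 per D. virilis group). FBgn0210268, FBgn0208855 and FBgn0013068 are lower and FBgn0210325 and FBgn0197655 higher in acclimated libraries of both species, while the groups of FBgn0013133 are apart in D. virilis and overlap in D. montana.

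No identifier of the set was called in both species, against 0.0537% of the 7443 genes tested in both. Signs of the log2 fold changes were the same in both species for 163 of the 225 (72.4%, against 59.4% of all), of which 133 were above 0 and 30 below. The difference between the responses was tested as an interaction over all 10 libraries, and 0 of the 225 passed (against 0.224% of 9811 tested genes). Unadjusted p-values were under 0.05 for 26 of the 225 (11.6%, against 11.4% of all), 25 of them with the more positive response in D. virilis (against 5.39% of all) and 1 with the more positive response in D. montana (against 5.99% of all). DESeq2's Wald test called 2 (0.712% of all) and edgeR without D. virilis acclimated 2 called 1 (1.83% of all), with the more positive response in D. virilis. The median difference, D. montana minus D. virilis, was −0.23 log2 units for the 225 and 0.02 for all tested genes. That of FBgn0013133 was −0.99 ± 0.28 (SE), with an edgeR adjusted p of 0.19, and that of FBgn0210268 was −0.85 ± 0.31 (SE), with an edgeR adjusted p of 0.30, so neither response was shown to differ between the species, nor to be alike.

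The threshold cut through a dense range of levels. Just inside it, FBgn0199201 averaged 401 CPM in D. montana controls and 679 CPM in D. virilis controls, and FBgn0209303 averaged 652 and 401 CPM. Just outside, FBgn0197608 averaged 399.6 CPM in D. montana controls and 694 CPM in D. virilis controls, and FBgn0205273 averaged 445 and 397 CPM. A threshold of 200 CPM would have taken 537 identifiers and one of 800 CPM 122, and 195 of the 225 reached 400 CPM in each of the 5 control libraries. The D. virilis median log2 fold change was 0.14 at 200 CPM and 0.44 at 800 CPM, and that in D. montana 0.02 and 0.18.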

How the data were processed

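The authors deposited raw read counts per gene identifier. The submitters' processing notes name HTSeq, whose version is not given in the sources used here, as is true of the aligner, genome build, annotation and strand setting. The 5 counters at the end of each file name no gene and entered neither library sizes nor tests. CPM was computed as count times 1000000 over the sum of gene rows. The members and lists were chosen with earlier results of these data known. Each species was fitted alone with edgeR 4.0.16 in R 4.3.3 (quasi-likelihood test, TMM scaling, default expression filter by group), and the interaction over all 10 libraries. P-values were adjusted over all genes tested (Benjamini-Hochberg) and called under 0.05. Fold changes use TMM-scaled library sizes, while printed CPM and the comparisons of libraries for overlap do not. Standard errors are the unshrunken log2 fold change over the square root of F. DESeq2 1.42.0 was an alternative. Scripts were tested on simulated data. A count of 0 allows up to 1.34 to 1.98 CPM in D. montana and 2.28 to 4.61 CPM in D. virilis (3 counts, counting error only). Identifiers were named by a rule: the first 6 by control geometric mean, up to 2 per direction and species among calls without overlap, the extremes of the species ratio and of the control spread, and 2 on each side of the threshold.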

Additional observations from a re-analysis of the deposited data

How the results depend on the processing

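Under 8 other settings of scaling, filter, block and tool, 5 identifiers stayed the count in D. montana, beside 1.11% to 2.43% of all genes. It was 11 of 537 with a 200 CPM threshold and 2 of 122 with 800 CPM, beside 1.67% of all genes. Without single libraries it was 3 to 8, beside 0.708% to 2.99% of all. In D. virilis, against 1, the count was 3 with library sizes taken outside the set, beside 0.494% of all genes. It was 60 with no filter (3.05% of all), 22 with DESeq2 (3.76% of genes given an adjusted p) and 12 in the joint fit (2.44% of all). It was 2 of 537 at 200 CPM, 0 of 122 at 800 CPM and 2 of 231 with the set from acclimated means, beside 0.312% of all. Without single libraries, when 1 library was left in a group, it was 0 to 32, beside 0.0613% to 2.63% of all. In the interaction the count was 2 with DESeq2, beside 0.712% of all genes, and 1 of 537 at 200 CPM, beside 0.224%. Without single libraries it was 0 to 1, beside 0.145% to 1.83% of all. Same-numbered acclimated and control D. montana libraries did not deviate together from their group means (correlations of −0.23, −0.12 and −0.13). The 2 D. virilis libraries of a group deviate as mirror images, which leaves 1 value, −0.05. Deviations within such small groups are tied to each other, so these values cannot settle whether the numbers pair the pools. With the replicate number as a block the counts were 5, 2 and 0, beside 1.66%, 0.546% and 0.173% of all genes.

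The D. montana median of 0.11 was 0.017 at 200 CPM, 0.18 at 800 CPM and 0.052 to 0.20 without single libraries. The D. virilis median of 0.35 was 0.36 with DESeq2 size factors, 0.35 with upper quartile scaling, 0.23 with no scaling, 0.38 with library sizes outside the set, 0.40 with no filter, 0.14 at 200 CPM, 0.435 at 800 CPM, 0.385 with the set from acclimated means, 0.38 with 400 CPM in each control library and 0.29 to 0.39 without single libraries. Rank correlations between the species at 800 CPM were 0.65 (acclimated) and 0.66 (control), and 0.75 to 0.80 and 0.73 to 0.77 without single libraries. In D. virilis acclimated and control means correlated with 0.92 at 200 CPM and 0.94 to 0.95 without single libraries. The D. virilis difference in read share was 5.99 points at 200 CPM, 5.66 at 800 CPM, 7.14 with the set from acclimated means and 5.91 to 7.02 without single libraries.

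Signs changed for these values, none of which passed the threshold with all libraries, though FBgn0206566 in D. virilis did without control 1. FBgn0201384 in D. montana was −0.0225 with no scaling and −0.0088 with no filter. FBgn0205055 in D. montana was 0.0176 with upper quartile scaling, 0.0057 with library sizes outside the set and 0.0037 with the replicate block. The interaction of FBgn0013068 was −0.0488 with the block. Without single libraries the D. montana values ran from −0.0021 to 0.392 for FBgn0016474, −0.0147 to 0.514 for FBgn0206566, −0.0865 to 0.126 for FBgn0201384 and −0.0957 to 0.13 for FBgn0205055. The D. virilis values ran from −0.494 to 0.0166 for FBgn0016474, −0.79 to 0.0308 for FBgn0206566 and −0.79 to 0.432 for FBgn0205992. The interaction ran from −0.011 to 0.434 for FBgn0210325, −0.111 to 0.25 for FBgn0197655 and −0.876 to 0.866 for FBgn0013068. The causes were not tested. The D. virilis overlap counts without single libraries, the classes by control mean, the control ratios without single libraries and the alternatives for FBgn0208855 were chosen after seeing the data.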

Other observations

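FBgn0205787 and FBgn0013072, picked after their values had been seen, were high and low in the same acclimated D. virilis pools. FBgn0205787 had 1931, 1892 and 835 CPM in acclimated D. montana and 1916, 1115 and 917 CPM in control D. montana. FBgn0013072 had 1385, 1403 and 602 CPM in the same acclimated and 1567, 852 and 993 CPM in the same control libraries. In D. virilis FBgn0205787 had 226 and 857 CPM in acclimated and 378 and 832 CPM in control flies, and FBgn0013072 had 151 and 467 CPM in acclimated and 283 and 579 CPM in control flies. Both were low in replicate 1 of either D. virilis group. The ratio of FBgn0205787 to FBgn0013072 lay between 0.923 and 1.39 in D. montana and between 1.34 and 1.83 in D. virilis.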
